A study of Mus musculus with 8 samples.

Results

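The integrated stress response and the unfolded protein response were followed through 34 genes, each a named member of the 2 pathways. They were chosen with earlier results of these data known. The ATF4 amino acid arm holds 27 of them (7 transcription factors, 6 regulators and feedback genes, 10 enzymes and 4 transporters), and the endoplasmic reticulum (ER) chaperone arm holds 7. Each of the 34 symbols was found once among the 48440 genes of the count table, and all 34 passed the filter on low counts that left 17739 genes for testing. Messenger RNA had been sequenced from mouse embryonic stem cells of 129/Ola background in 4 groups of 2 libraries: CTNNB1-/- knock-out cells with CHIR99021, knock-out cells with DMSO, CTNNB1+/+ parental cells with CHIR99021, and parental cells with DMSO. CTNNB1 encodes β-catenin, the transcriptional effector of the Wnt pathway, and CHIR99021 inhibits the kinase GSK3. It was used at 3 μM, and its vehicle DMSO at 0.3 μl/ml, for 72 hours. All 4 groups grew without feeders on gelatin, in serum medium to which non-essential amino acids and glutamine had been added. The labels do not say whether the 2 libraries of a group came from separate cultures, and the p-values cover only library-to-library spread, possibly technical. Each genotype is 1 line, so a difference between knock-out and parental cells cannot be told apart from any other difference between the lines.

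In the integrated stress response, kinases that sense amino acid lack, ER stress, haem lack or double-stranded RNA phosphorylate the initiation factor eIF2, which lowers general protein synthesis and favours translation of the mRNA of ATF4. ATF4 is a bZIP transcription factor whose known targets are genes of amino acid synthesis and uptake, tRNA charging and feedback on the response itself. The unfolded protein response of the ER adds the sensors ATF6 and IRE1, and IRE1 splices the mRNA of XBP1, a second bZIP factor, whose targets with those of ATF6 are ER chaperones and degradation genes. ATF4 is controlled largely in translation and XBP1 by splicing, and neither step was measured by the gene counts used here.

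The 2 arms are known for different promoter elements, and some members carry them close to the start site. RefSeq promoters (build GRCm38.p6, 250 bases before the start site) were matched by symbol for 30 of the 34 members, and Slc7a5, Slc7a3, Eif4ebp1 and Cth had no entry in the table. The core of the C/EBP-ATF response element, TGATGNAA, was searched on both strands (TTNCATCA on the other). It was in 6 of 23 promoters of the ATF4 arm (26.1%; Asns, Atf3, Chac1, Nupr1, Pycr1 and Vldlr), in 1 of 7 of the ER arm (Herpud1) and in 3.45% of all 32851 promoters of the table. Counted per gene, as the members are, it was in 3.91% of 27025 genes. The ER stress response element, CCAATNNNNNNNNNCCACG (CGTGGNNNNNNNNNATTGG on the other strand), was in 0 of 23 promoters of the ATF4 arm, in 3 of 7 of the ER arm (42.9%; Hspa5, Calr and Hsp90b1) and in 0.113% of all promoters, or 0.13% of genes. Of the members with a promoter, 17 of 23 of the ATF4 arm and 3 of 7 of the ER arm held neither element in these 250 bases. Bases farther off and other forms of the elements were not searched. Stretches around 5 matches to the first element and 3 to the second are printed 5′ to 3′ on the strand of the gene, with the matched bases in capitals.
Asns: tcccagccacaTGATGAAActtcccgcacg
Nupr1: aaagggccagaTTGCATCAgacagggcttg
Atf3: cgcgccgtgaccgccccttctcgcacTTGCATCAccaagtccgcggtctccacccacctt
Chac1: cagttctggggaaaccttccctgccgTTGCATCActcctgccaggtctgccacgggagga
Herpud1: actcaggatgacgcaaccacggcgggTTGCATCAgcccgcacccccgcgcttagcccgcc
Hspa5: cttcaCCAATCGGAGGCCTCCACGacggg
Hsp90b1: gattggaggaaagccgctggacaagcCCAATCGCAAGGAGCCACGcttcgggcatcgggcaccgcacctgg
Calr: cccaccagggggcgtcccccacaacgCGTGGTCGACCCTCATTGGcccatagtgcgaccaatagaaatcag

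The stretch of Asns is at chr6:7693214-7693243 (minus strand) with its match at positions -23 to -16 from the RefSeq start, and that of Nupr1 is at chr7:126625562-126625591 (minus) with its match at -110 to -103. That of Atf3 is at chr1:191183410-191183469 (minus, -110 to -103), that of Chac1 at chr2:119351023-119351082 (plus, -193 to -186) and that of Herpud1 at chr8:94386291-94386350 (plus, -112 to -105). That of Hspa5 is at chr2:34772020-34772048 (plus, -65 to -47), that of Hsp90b1 at chr10:86705612-86705682 (minus, -212 to -194) and that of Calr at chr8:84847049-84847119 (minus, -162 to -144). In the GENCODE M21 annotation the stretches of Asns, Nupr1 and Hspa5 overlap an exon of their own gene, and the other 5 do not. Hsp90b1 held a second match at -107 to -89. The matched bases are TGATGAAA in Asns and TGATGCAA or its reverse complement TTGCATCA in the other 5 members of the ATF4 arm. With CHIR99021 in parental cells Asns, Nupr1 and Atf3 were called higher, Chac1 and Pycr1 lower, and Vldlr was not called. A match describes the sequence and does not show binding.

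Totals of estimated counts ran from 23650572 to 27680649 per library, and levels are given as CPM, counts relative to the scaled library total and not divided by transcript length. Replicates of a group correlated across genes with r between 0.9866 and 0.9894 on log2 CPM. Ctnnb1 was at 8.70 and 9.42 CPM in knock-out cells with CHIR99021, 7.98 and 10.7 CPM in knock-out cells with DMSO, 813 and 843 CPM in parental cells with CHIR99021 and 887 and 906 CPM in parental cells with DMSO. Of the markers of embryonic stem cells, 8 of 8 were above 1 CPM, with a summed level of 5213 to 5261 CPM in knock-out cells with CHIR99021, 5463 to 5621 CPM in knock-out cells with DMSO, 5471 to 5599 CPM in parental cells with CHIR99021 and 5885 to 5887 CPM in parental cells with DMSO. Fibroblast markers (7 genes) summed to 9.31 to 10.5 CPM in knock-out cells with CHIR99021, 8.37 to 9.23 CPM in knock-out cells with DMSO, 7.47 to 8.32 CPM in parental cells with CHIR99021 and 5.11 to 5.93 CPM in parental cells with DMSO, with Postn, Dcn and Lum at 0 in every library. Mesoderm markers (5 genes, among them T and Eomes, none at 0 in every library) summed to 42.7 to 44.5 CPM in parental cells with CHIR99021 and to 2.86 to 3.99 CPM in the other 3 groups. The highest library had 12.3 CPM for T and 30.5 CPM for Eomes. Mixl1, Tbx6 and Mesp1 reached at most 1.25, 0.87 and 0.145 CPM in any library. The sum in parental cells with CHIR99021 is thus mostly Eomes and T. Primitive endoderm markers (6 genes, none at 0 in every library) summed to 18.9 to 21.2 CPM in knock-out cells and to 8.29 to 9.58 CPM in parental cells. Neural markers (5 genes, Neurog2 at 0 in every library) summed to 14.5 to 15.4 CPM in parental cells with CHIR99021 and to 21.3 to 25.1 CPM in the other 3 groups, and trophoblast markers (4 genes, none at 0 in every library) to 36.3 to 41.8 CPM with CHIR99021 and 46.9 to 49.6 CPM with DMSO. The trophoblast sum was mostly Tfap2c (33.9 to 46.6 CPM), with Krt7 at 1.62 to 3.14 CPM and Elf5 and Gata3 under 1 CPM. Of the fibroblast markers only Thy1 (3.78 to 8.06 CPM) and Col1a1 (1.24 to 2.31 CPM) reached 1 CPM in any library. The trophoblast and fibroblast sums thus rest mostly on Tfap2c and Thy1. The part of these cell types in the results below was not tested. In such bulk samples, fewer cells of a type and less RNA per cell cannot be told apart.

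In knock-out cells CHIR99021 changed few members of the ATF4 arm. Nupr1, a small stress-induced chromatin-associated factor, rose, and Slc7a3, a cationic amino acid transporter that takes up arginine and lysine, fell. With edgeR's quasi-likelihood test and Benjamini-Hochberg adjustment across the 17739 genes, 2 of 27 members were called at an adjusted p under 0.05, 1 higher and 1 lower. Of all genes tested 7.06% were called in this comparison, 2.88% higher and 4.18% lower, so the share of members lay near that background. The median log2 fold change of the arm was -0.03, beside 0.00 over all genes tested. Nupr1 was at 15.6 and 15.7 CPM with CHIR99021, against 10.5 and 10.8 CPM with DMSO, a log2 fold change of 0.56 ± 0.07 (SE from edgeR, 2 libraries a group; adjusted p = 0.00168). Slc7a3 was at 115 and 117 CPM with CHIR99021, against 143 and 146 CPM with DMSO, a log2 fold change of -0.32 ± 0.04 (SE) with an adjusted p of 0.00167. For both genes the 2 libraries with CHIR99021 lay apart from the 2 with DMSO, and both calls held under each of the 12 alternative settings. Such separation was common. In 10 of 27 members of the arm both CHIR99021 libraries lay above both DMSO ones, and in 12 of 27 below. Over the 17739 genes tested it was 4508 above and 4777 below. Trophoblast markers summed to 36.6 to 40.4 CPM with CHIR99021 and to 47.7 to 49.4 CPM with DMSO in these cells. The sums with CHIR99021, set against those with DMSO, of fibroblast markers (9.31 to 10.5 against 8.37 to 9.23 CPM), mesoderm markers (2.86 to 3.02 against 3.43 to 3.99 CPM), primitive endoderm markers (19.7 to 21.2 against 18.9 to 19.3 CPM) and embryonic stem cell markers (5213 to 5261 against 5463 to 5621 CPM) did not overlap either. Such separation was common among all genes tested, as the counts above give. The part of these cell types was not tested.

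The other transcription factors of the arm gave no call in knock-out cells. Atf4 itself was at 226 and 234 CPM with CHIR99021, against 243 and 226 CPM with DMSO (log2 fold change -0.03 ± 0.04, adjusted p = 0.784), and the groups overlapped. Ddit3, which encodes the pro-apoptotic factor CHOP, was at 8.13 and 8.34 CPM with CHIR99021, against 6.56 and 5.87 CPM with DMSO, a log2 fold change of 0.40 ± 0.12 (adjusted p = 0.0627). Those groups did not overlap, and the call was made only with no filter on low counts (adjusted p = 0.0391; range 0.0391 to 0.318 over 12 alternatives). Atf3, a stress-induced repressor and activator, was at 2.73 and 2.51 CPM with CHIR99021, against 2.18 and 1.87 CPM with DMSO (log2 fold change 0.37 ± 0.21, adjusted p = 0.308). Cebpb, a C/EBP partner of ATF4, had as few as 18 counts in a library and the widest error, with a log2 fold change of -0.59 ± 0.29 (adjusted p = 0.245). Of the regulators 0 of 6 were called (2 at an unadjusted p under 0.05, 0 with DESeq2), and their log2 fold changes ran from -0.14 for Chac1, which encodes an enzyme that breaks down glutathione, to 0.49 for Vldlr, the very low density lipoprotein receptor. Asns, asparagine synthetase, was at 268 and 266 CPM with CHIR99021, against 238 and 242 CPM with DMSO, a log2 fold change of 0.15 ± 0.04 (adjusted p = 0.0685). It was below 0.05 with DESeq2 (adjusted p = 0.0438), with no filter (0.0191), without parental CHIR99021 replicate 1 (0.0379) and without parental CHIR99021 replicate 2 (0.0396), over a range of 0.0191 to 0.278 in 12 alternatives. The log2 fold changes of the other 9 enzymes ran from -0.14 (Cth) to 0.11 (Aldh18a1), and those of the other 3 transporters from -0.08 (Slc7a5) to 0.00 (Slc3a2).

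In parental cells CHIR99021 moved members of the ATF4 arm in both directions. Nupr1, Atf3, Asns and Phgdh, the first enzyme of serine synthesis, rose, while Slc7a3, Chac1, Trib3, Cth, Pycr1 and Slc7a5 fell. That is 10 of 27 members called (edgeR, adjusted p under 0.05), 4 higher and 6 lower, and of all genes tested 19.4% were called, 9.10% higher and 10.3% lower. The arm's median log2 fold change was -0.03, beside 0.00 over all genes tested. Leaving out parental CHIR99021 replicate 1 left 5 members called, and leaving out parental DMSO replicate 1 left 6. Mesoderm markers summed to 42.7 to 44.5 CPM in these CHIR99021 libraries and to 3.22 to 3.44 CPM in the DMSO ones, and neural markers to 14.5 to 15.4 CPM with CHIR99021 and to 23.5 to 25.1 CPM with DMSO. Trophoblast markers summed to 36.3 to 41.8 CPM with CHIR99021 and to 46.9 to 49.6 CPM with DMSO, fibroblast markers to 7.47 to 8.32 CPM with CHIR99021 and to 5.11 to 5.93 CPM with DMSO, and embryonic stem cell markers to 5471 to 5599 CPM with CHIR99021 and to 5885 to 5887 CPM with DMSO. The 2 groups did not overlap in any of these sums, and their part was not tested. Such separation was common. In 7 of 27 members of the arm both CHIR99021 libraries lay above both DMSO ones, and in 12 of 27 below. Over the 17739 genes tested it was 5301 above and 5243 below.

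**Figure D1:**
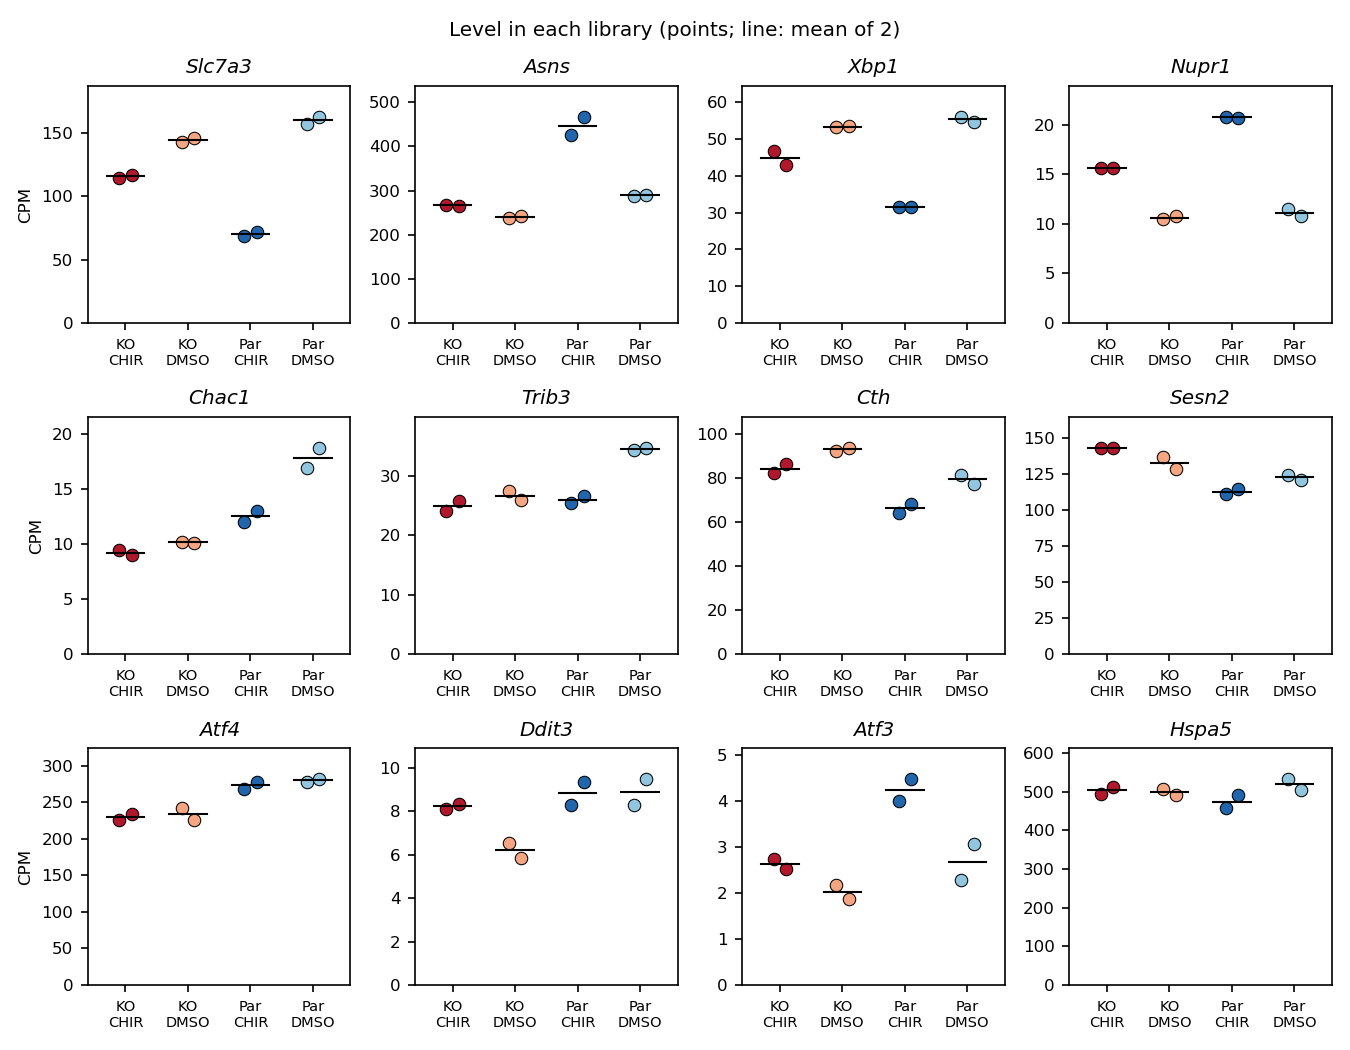
Level of 12 members in CPM (vertical axis, linear from 0) in each of the 8 libraries. Columns are, from left, knock-out (KO) cells with CHIR99021 (CHIR) and with DMSO, and parental (Par) cells with CHIR99021 and with DMSO. Points are libraries and lines the mean of 2. Slc7a3 and Xbp1 are lowest, and Asns and Nupr1 highest, in parental cells with CHIR99021.

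Among the transcription factors in parental cells, Nupr1 was at 20.8 and 20.7 CPM with CHIR99021, against 11.5 and 10.8 CPM with DMSO, a 1.86-fold level and a log2 fold change of 0.90 ± 0.07 (adjusted p = 7.48e-06). Atf3 was at 3.98 and 4.47 CPM with CHIR99021, against 2.28 and 3.07 CPM with DMSO, a log2 fold change of 0.66 ± 0.19 (adjusted p = 0.0362). The 2 groups of Atf3 did not overlap, but its call was lost with DESeq2 (0.264), without parental DMSO replicate 1 (0.225), without parental CHIR99021 replicate 1 (0.0722), without parental CHIR99021 replicate 2 (0.154), without knock-out CHIR99021 replicate 1 (0.051), or leaving out knock-out CHIR99021 replicate 2 (0.0506), with an adjusted p of 0.0182 to 0.264 over 12 alternatives. Atf4 was at 268 and 278 CPM with CHIR99021, against 278 and 282 CPM with DMSO, with overlapping libraries (log2 fold change -0.03 ± 0.04, adjusted p = 0.646). Ddit3 was at 8.31 and 9.37 CPM with CHIR99021, against 8.29 and 9.50 CPM with DMSO, again overlapping (log2 fold change -0.01 ± 0.11, adjusted p = 0.965). Atf5, Cebpb and Cebpg had log2 fold changes of 0.08, -0.02 and -0.03, with no call. Exons of Ddit3, Atf5, Cebpb, Ppp1r15a, Psph, Shmt2 and Hsp90b1 overlap a tested gene on the opposite strand, and those of Cebpg and Hsp90b1 one on the same strand. The strand setting of the counting is not given in the sources used here, so reads of these pairs may be shared and the values of the 8 members are uncertain to that extent.

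The regulators all had log2 fold changes below 0 with CHIR99021 in parental cells, as had 8747 of the 17739 genes tested, and 2 of 6 were called. Chac1 was at 12 and 13 CPM with CHIR99021, against 16.9 and 18.8 CPM with DMSO, a log2 fold change of -0.51 ± 0.08 (adjusted p = 0.00149). Trib3, a pseudokinase that binds ATF4 and limits its activity, was at 25.4 and 26.6 CPM with CHIR99021, against 34.3 and 34.7 CPM with DMSO, a log2 fold change of -0.41 ± 0.06 (adjusted p = 0.000884). For both genes every CHIR99021 library lay below every DMSO library, and both calls held under the 12 alternatives. Sesn2, a stress-induced inhibitor of mTORC1 signalling, was at 111 and 115 CPM with CHIR99021, against 125 and 121 CPM with DMSO (log2 fold change -0.12 ± 0.04, adjusted p = 0.073). Ppp1r15a (GADD34, the stress-induced subunit of an eIF2 phosphatase), Eif4ebp1 (a repressor of cap-dependent translation) and Vldlr had log2 fold changes of -0.04, -0.09 and -0.07, with no call.

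Of the 10 enzymes 2 rose and 2 fell in parental cells. Asns was at 427 and 467 CPM with CHIR99021, against 288 and 290.0 CPM with DMSO, a 1.55-fold level and a log2 fold change of 0.63 ± 0.04 (adjusted p = 2.52e-06), which held under the 12 alternatives. Phgdh was at 251 and 244 CPM with CHIR99021, against 205 and 224 CPM with DMSO, a log2 fold change of 0.21 ± 0.05 (adjusted p = 0.0153). The groups of Phgdh did not overlap, and its call was lost without parental DMSO replicate 1 (0.146), or leaving out parental CHIR99021 replicate 1 (0.0929), with an adjusted p of 0.000398 to 0.146 over 12 alternatives. Cth, which makes cysteine from cystathionine, was at 64.3 and 68.4 CPM with CHIR99021, against 81.7 and 77.5 CPM with DMSO, a log2 fold change of -0.26 ± 0.05 (adjusted p = 0.00386). Its call was lost without parental CHIR99021 replicate 1 (0.0505), with a range of 2.38e-05 to 0.0505. Pycr1, a proline synthesis enzyme of mitochondria, was at 31.1 and 32.7 CPM with CHIR99021, against 36 and 38.7 CPM with DMSO, a log2 fold change of -0.23 ± 0.07 (adjusted p = 0.0354). Its call was lost with DESeq2 (0.197), without parental DMSO replicate 1 (0.0555), without parental DMSO replicate 2 (0.228), without parental CHIR99021 replicate 1 (0.192), or leaving out parental CHIR99021 replicate 2 (0.0696), with a range of 0.00943 to 0.228. Psat1 and Psph, which follow Phgdh in serine synthesis, had log2 fold changes of -0.05 and 0.01. Shmt2 and Mthfd2, the mitochondrial enzymes that pass the serine carbon to folate, had -0.10 and 0.11, Aldh18a1 of proline synthesis had 0.13 and Gpt2, mitochondrial alanine transaminase, had 0.00, none of them called.

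The transporters held the lowest value of the arm. Slc7a3 was at 68.9 and 72.2 CPM in parental cells with CHIR99021, against 157 and 163 CPM with DMSO, a 0.441-fold level and a log2 fold change of -1.18 ± 0.04 (adjusted p = 1.98e-08). Slc7a5, the light chain of the transporter of large neutral amino acids, was at 290.2 and 297 CPM with CHIR99021, against 323 and 328 CPM with DMSO, a log2 fold change of -0.15 ± 0.04 (adjusted p = 0.028). The call of Slc7a3 held under the 12 alternatives, and that of Slc7a5 was lost without parental DMSO replicate 1 (0.0854), without parental DMSO replicate 2 (0.151), without parental CHIR99021 replicate 1 (0.165), or leaving out parental CHIR99021 replicate 2 (0.0705), with a range of 0.00369 to 0.165. Its heavy chain Slc3a2 had a log2 fold change of -0.12 ± 0.04 (adjusted p = 0.0669). It passed with no filter (0.0408), without knock-out DMSO replicate 1 (0.0393) or leaving out its replicate 2 (0.0416), over a range of 0.0393 to 0.253. Slc7a1, the other cationic transporter of the arm, had 0.01 ± 0.04 (adjusted p = 0.86).

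**Figure D2:**
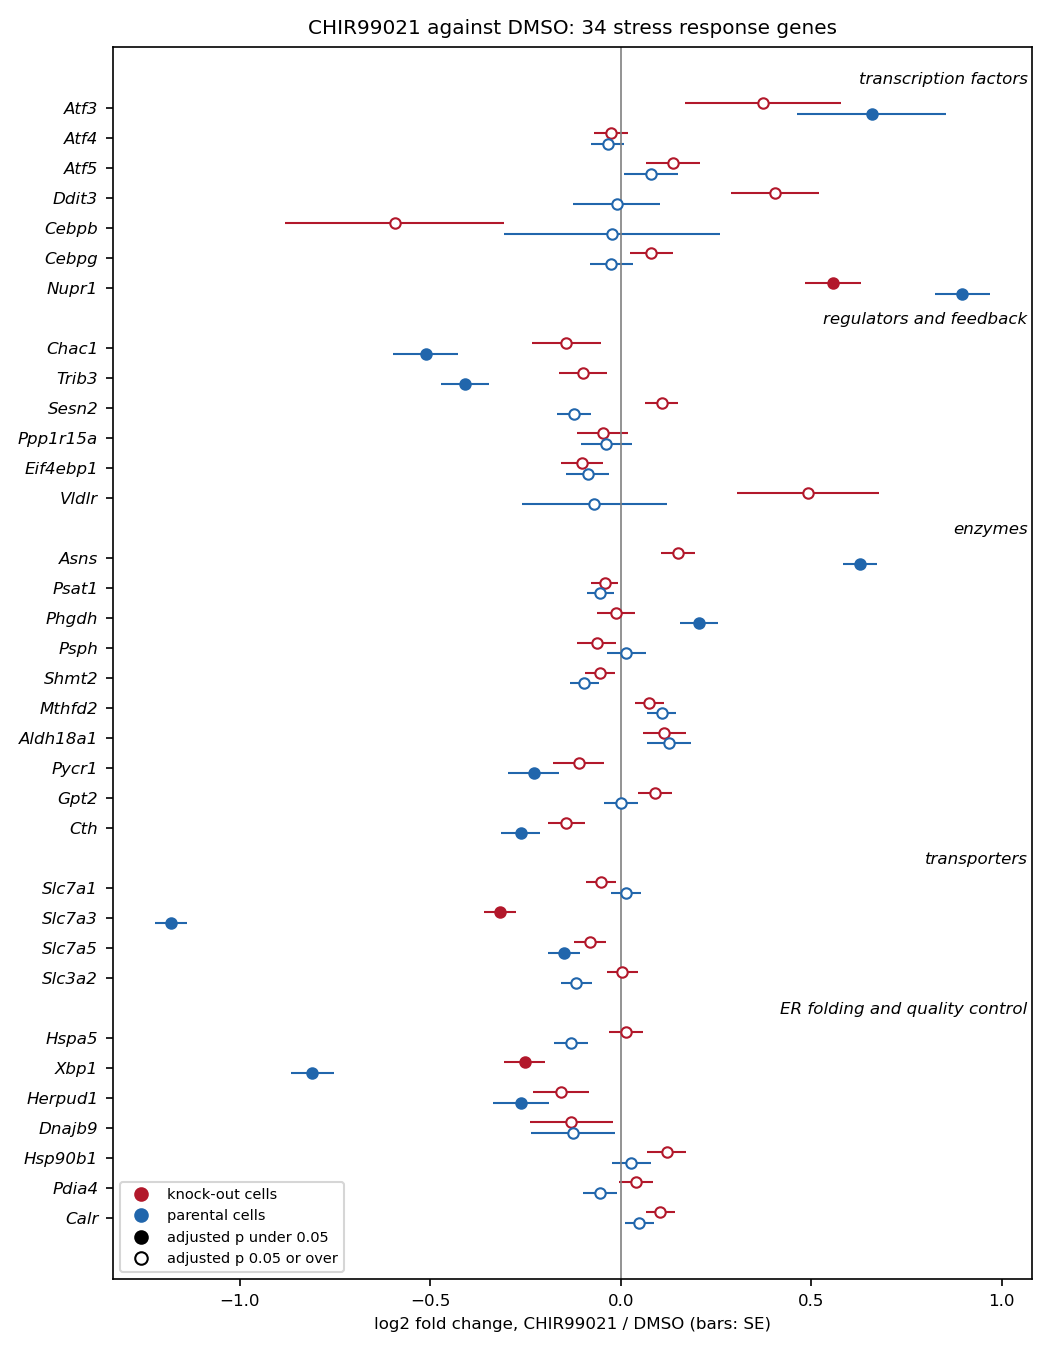
Log2 fold change of CHIR99021 over DMSO (horizontal axis) for each of the 34 members by role, in knock-out cells (red) and parental cells (blue). Bars are SE and filled points have an adjusted p under 0.05. Nupr1 is filled to the right of 0 and Slc7a3 and Xbp1 to the left in both lines, and Asns is filled in parental cells with a log2 fold change of 0.63.

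The response to CHIR99021 differed between the lines for 2 members of the ATF4 arm, Slc7a3 and Asns, and for Xbp1 of the ER arm, by the interaction term of the same fit. Over all genes tested 6.13% gave such a call, 3.22% with a higher and 2.91% with a lower value in knock-out cells, which is near the share of the ATF4 arm, 2 of 27. For Slc7a3 the log2 fold change was -0.32 in knock-out cells and -1.18 in parental cells, a difference of 0.86 ± 0.06 (SE) with an adjusted p of 9.55e-06. For Asns it was 0.15 in knock-out cells and 0.63 in parental cells, a difference of -0.48 ± 0.06 (SE) with an adjusted p of 0.000942. For Xbp1 it was -0.25 in knock-out cells and -0.81 in parental cells, a difference of 0.56 ± 0.08 (SE) with an adjusted p of 0.00136. In each of the 3 the value in knock-out cells had the sign of that in parental cells and was nearer to 0, and the 3 differences held under the 12 alternatives. In GRCm38 (GENCODE M21) these are Asns (ENSMUSG00000029752, chr6:7675169-7693254, minus strand), Slc7a3 (ENSMUSG00000031297, chrX:101079210-101086020, minus strand) and Xbp1 (ENSMUSG00000020484, chr11:5520659-5525893, plus strand), each a protein-coding gene whose exons overlap no other tested gene. The differences of Nupr1 (-0.34 ± 0.10, adjusted p = 0.0856), Trib3 (0.31 ± 0.09, adjusted p = 0.0702) and Chac1 (0.37 ± 0.12, adjusted p = 0.115) did not pass, so no difference between lines was shown for them. That of Phgdh, -0.22 ± 0.07 (adjusted p = 0.104), passed only with no filter (0.0221). That of Sesn2, 0.23 ± 0.06 (adjusted p = 0.0507), passed with no filter (0.0193) or without knock-out DMSO replicate 1 (0.0405), over a range of 0.0193 to 0.18.

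Across the 27 members of the ATF4 arm the log2 fold changes in the 2 lines had the same sign for 19 genes (70.4%), beside 61.3% of all genes tested, and correlated with r = 0.61. Across the 7 of the ER arm 5 had the same sign and r was 0.86. Over all genes tested r was 0.08. Their log2 fold changes ran from -9.44 to 10.5 in knock-out and from -11.3 to 8.46 in parental cells, far wider than the members'. The r of all genes is therefore not read against those of the arms. These are descriptions over genes, which share the 8 libraries and are not independent, and no p is given. Cebpb, Ddit3 and Vldlr had log2 fold changes of -0.59 ± 0.29, 0.40 ± 0.12 and 0.49 ± 0.19 (SE) in knock-out cells and of -0.02 ± 0.28, -0.01 ± 0.11 and -0.07 ± 0.19 in parental cells. Their differences between lines did not pass (adjusted p = 0.472, 0.174 and 0.266).

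**Figure D3:**
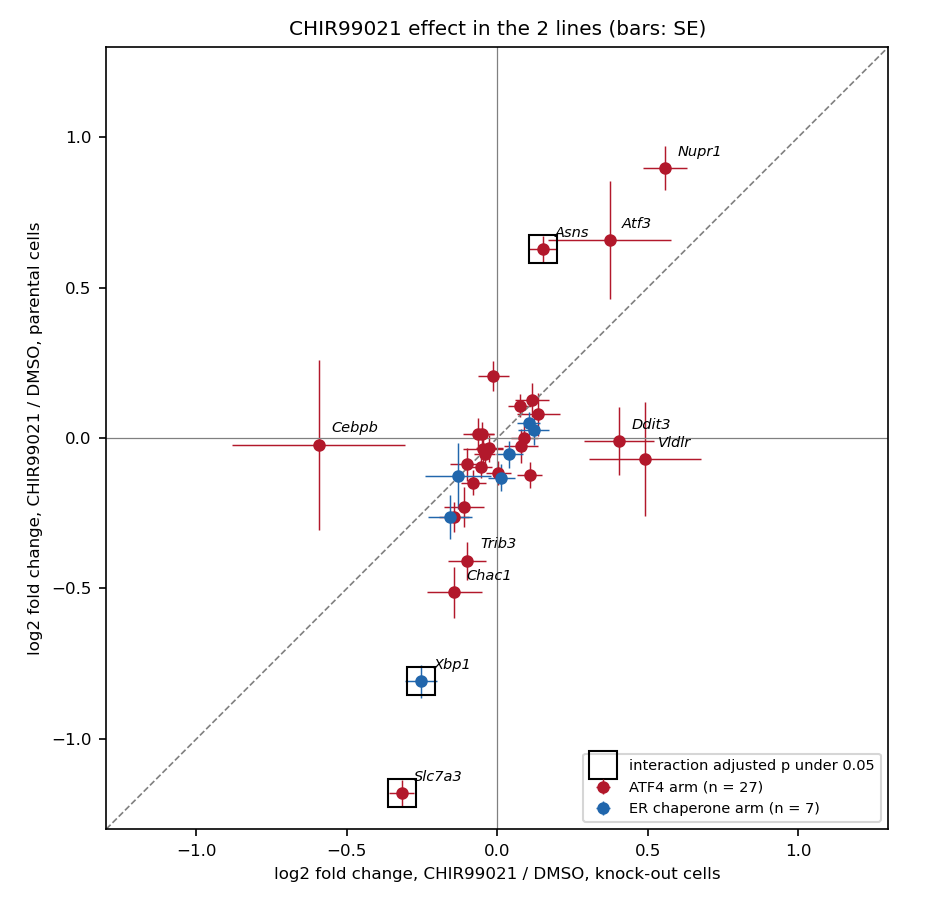
Log2 fold change of CHIR99021 over DMSO in knock-out cells (horizontal axis) and in parental cells (vertical axis) for the 34 members, with SE bars. The dashed line marks equal values. Squares mark Slc7a3, Asns and Xbp1, whose difference between lines has an adjusted p under 0.05. All 3 lie farther from 0 on the vertical than on the horizontal axis.

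Without CHIR99021 most members had a slightly lower level in knock-out than in parental cells. In DMSO 31 of the 34 log2 fold changes were below 0, beside 8746 of the 17739 genes tested. In 26 of 34 genes both knock-out libraries lay below both parental ones (21 of 27 of the ATF4 arm and 5 of 7 of the ER arm), which held for 24.8% of all genes tested. The members share the same libraries and are not independent. The median was -0.14 for the ATF4 arm and -0.08 for the ER arm, beside 0.00 over all genes. In the ATF4 arm 9 of 27 were called, 1 higher and 8 lower, against 6.75% of all genes tested, 3.13% higher and 3.62% lower. Without parental DMSO replicate 1 the 9 became 5, and without parental DMSO replicate 2 they became 3. Primitive endoderm markers summed to 18.9 to 19.3 CPM in knock-out and 8.29 to 9.38 CPM in parental cells with DMSO, and fibroblast markers to 8.37 to 9.23 CPM in knock-out and 5.11 to 5.93 CPM in parental cells. Embryonic stem cell markers summed to 5463 to 5621 CPM in knock-out and 5885 to 5887 CPM in parental cells. The lines did not overlap in any of these sums, and their part was not tested. Such separation was common. Of the 17739 genes tested, 4407 lay higher and 4396 lower in both knock-out libraries than in both parental ones.

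By role, the factors Atf4 and Ddit3 were lower in knock-out than in parental cells. Atf4 (ENSMUSG00000042406, chr15:80255184-80257541, plus strand) was at 243 and 226 CPM in knock-out cells, against 278 and 282 CPM in parental cells, both with DMSO, a log2 fold change of -0.26 ± 0.04 (adjusted p = 0.00649). Its call was lost without parental DMSO replicate 2 (0.0525), with a range of 4.38e-07 to 0.0525. Ddit3 was at 6.56 and 5.87 CPM in knock-out cells, against 8.29 and 9.50 CPM in parental cells, a log2 fold change of -0.52 ± 0.12 (adjusted p = 0.0247). Its call was lost with DESeq2 (0.183), without parental DMSO replicate 1 (0.0512), without parental DMSO replicate 2 (0.166), without knock-out DMSO replicate 1 (0.0593), or leaving out knock-out DMSO replicate 2 (0.126), with a range of 0.00248 to 0.183. Atf3 was at 2.18 and 1.87 CPM in knock-out cells, against 2.28 and 3.07 CPM in parental cells (log2 fold change -0.40 ± 0.21, adjusted p = 0.303). Of the regulators, Chac1 was at 10.2 and 10.1 CPM in knock-out cells, against 16.9 and 18.8 CPM in parental cells, a 0.571-fold level and a log2 fold change of -0.81 ± 0.09 (adjusted p = 0.000491). Trib3 was at 27.4 and 25.9 CPM in knock-out cells, against 34.3 and 34.7 CPM in parental cells, a log2 fold change of -0.37 ± 0.06 (adjusted p = 0.00589). Both regulators lay lower in each knock-out library than in each parental one and kept their calls under the 12 alternatives.

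With DMSO, 4 of the 10 enzymes were lower and 1 was higher in knock-out than in parental cells. Asns was at 238 and 242 CPM in knock-out cells, against 288 and 290.0 CPM in parental cells, a log2 fold change of -0.27 ± 0.04 (adjusted p = 0.00577). Psat1 was at 412 and 409 CPM in knock-out cells, against 474 and 486 CPM in parental cells, a log2 fold change of -0.22 ± 0.04 (adjusted p = 0.00416). Mthfd2 was at 115 and 114 CPM in knock-out cells, against 132 and 130.2 CPM in parental cells, a log2 fold change of -0.20 ± 0.04 (adjusted p = 0.0109). The call of Asns held under the 12 alternatives, that of Psat1 was lost without parental DMSO replicate 2 (0.0504) over a range of 1.81e-06 to 0.0504, and that of Mthfd2 was lost without parental DMSO replicate 1 (0.0957), or leaving out parental DMSO replicate 2 (0.0555) over a range of 0.00122 to 0.0957. Cth went the other way, at 92.5 and 93.8 CPM in knock-out cells, against 81.7 and 77.5 CPM in parental cells, a log2 fold change of 0.23 ± 0.05 (adjusted p = 0.0209). Its call was lost without parental DMSO replicate 1 (0.0609), without parental DMSO replicate 2 (0.152), without knock-out DMSO replicate 1 (0.0727), or leaving out knock-out DMSO replicate 2 (0.0935), with a range of 0.00238 to 0.152. Gpt2 had a log2 fold change of -0.17 ± 0.04 (adjusted p = 0.0466), and its call was lost under 10 of 12 alternatives, namely with DESeq2 (0.194), with the replicate block (0.0608), without parental DMSO replicate 1 (0.211), without parental DMSO replicate 2 (0.165), without parental CHIR99021 replicate 1 (0.0558), without parental CHIR99021 replicate 2 (0.0585), without knock-out DMSO replicate 1 (0.0947), without knock-out DMSO replicate 2 (0.178), without knock-out CHIR99021 replicate 1 (0.0828), or leaving out knock-out CHIR99021 replicate 2 (0.08), with a range of 0.0269 to 0.211. The libraries of Phgdh overlapped, with 222 and 208 CPM in knock-out cells, against 205 and 224 CPM in parental cells. Of the transporters 0 of 4 were called (4 at an unadjusted p under 0.05, 0 with DESeq2), with log2 fold changes between -0.15 (Slc7a3) and -0.10 (Slc7a5). With no filter 3 of the 4 passed, namely Slc3a2 (0.0256), Slc7a1 (0.0377) and Slc7a3 (0.0295), and Slc3a2 also without knock-out DMSO replicate 1 (0.0491), over ranges of 0.0256 to 0.268, 0.0377 to 0.279 and 0.0295 to 0.276. Pycr1, with an adjusted p of 0.0585, passed with no filter (0.0117; range 0.0117 to 0.301).

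More members were called between the lines with CHIR99021. In knock-out cells with CHIR99021, set against parental cells with CHIR99021, 13 of 27 members of the ATF4 arm were called, 3 higher and 10 lower, against 23.7% of all genes tested, 11.2% higher and 12.5% lower. The arm's median was -0.11, beside 0.00 over all genes. Slc7a3 was at 115 and 117 CPM in knock-out cells, against 68.9 and 72.2 CPM in parental cells, a log2 fold change of 0.71 ± 0.04 (adjusted p = 7.87e-07). Asns was at 268 and 266 CPM in knock-out cells, against 427 and 467 CPM in parental cells, a log2 fold change of -0.74 ± 0.04 (adjusted p = 6.90e-07). The order of the 4 groups for Slc7a3 was thus parental DMSO, knock-out DMSO, knock-out CHIR99021 and parental CHIR99021 by falling level, and only the first 2 neighbours did not pass the test between them (adjusted p = 0.0573), except with no filter (0.0295; range 0.0295 to 0.276 over 12 alternatives). This comparison and the one in DMSO share no library with each other, but each shares its libraries with the CHIR99021 comparisons above. Mesoderm markers, at 2.86 to 3.02 CPM in knock-out and 42.7 to 44.5 CPM in parental cells with CHIR99021, moved with this comparison, and so did primitive endoderm markers, at 19.7 to 21.2 CPM in knock-out and 9.31 to 9.58 CPM in parental cells. Neural markers (21.3 to 23.3 CPM in knock-out and 14.5 to 15.4 CPM in parental cells), fibroblast markers (9.31 to 10.5 CPM in knock-out and 7.47 to 8.32 CPM in parental cells) and embryonic stem cell markers (5213 to 5261 CPM in knock-out and 5471 to 5599 CPM in parental cells) moved with it too. Their part was not tested. Of the 17739 genes tested, 5492 lay higher and 5576 lower in both knock-out libraries than in both parental ones. In the ATF4 arm 3 of 27 lay higher and 16 lower.

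With CHIR99021, Sesn2 and Cth were also higher in knock-out than in parental cells. Sesn2 was at 143 and 143 CPM in knock-out cells, against 111 and 115 CPM in parental cells, a log2 fold change of 0.34 ± 0.04 (adjusted p = 0.0002). Cth was at 82.2 and 86.5 CPM in knock-out cells, against 64.3 and 68.4 CPM in parental cells, a log2 fold change of 0.35 ± 0.05 (adjusted p = 0.000529). Cth was thus higher in knock-out than in parental cells under both treatments. Among the 10 members that were lower in knock-out than in parental cells, Nupr1 was at 15.6 and 15.7 CPM in knock-out cells, against 20.8 and 20.7 CPM in parental cells. That is a log2 fold change of -0.41 ± 0.07 (adjusted p = 0.00157). Atf4 was at 226 and 234 CPM in knock-out cells, against 268 and 278 CPM in parental cells, a log2 fold change of -0.25 ± 0.04 (adjusted p = 0.00199), close to its value in DMSO of -0.26. Psat1 was at 402 and 396 CPM in knock-out cells, against 455 and 469 CPM in parental cells, a log2 fold change of -0.21 ± 0.04 (adjusted p = 0.00135). Mthfd2 was at 120.2 and 120.2 CPM in knock-out cells, against 139.8 and 143 CPM in parental cells, a log2 fold change of -0.23 ± 0.04 (adjusted p = 0.00113). These calls, and those of Slc7a3 and Asns, held under the 12 alternatives.

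The other 5 calls in CHIR99021 depended on a setting or a library. Chac1 was at 9.45 and 9.0 CPM in knock-out cells, against 12 and 13 CPM in parental cells, a log2 fold change of -0.44 ± 0.09 (adjusted p = 0.00466), lost with DESeq2 (0.0618) over a range of 0.000547 to 0.0618. Atf3 was at 2.73 and 2.51 CPM in knock-out cells, against 3.98 and 4.47 CPM in parental cells, a log2 fold change of -0.69 ± 0.19 (adjusted p = 0.0245), lost with DESeq2 (0.188), without parental CHIR99021 replicate 1 (0.0534), without parental CHIR99021 replicate 2 (0.117), without knock-out CHIR99021 replicate 1 (0.077), or leaving out knock-out CHIR99021 replicate 2 (0.131) over a range of 0.00744 to 0.188. Phgdh had a log2 fold change of -0.22 ± 0.05 (adjusted p = 0.00893), lost without parental CHIR99021 replicate 1 (0.0674), or leaving out knock-out CHIR99021 replicate 2 (0.0835) over a range of 2.68e-05 to 0.0835. Slc7a1 had -0.21 ± 0.04 (adjusted p = 0.00367), lost without knock-out CHIR99021 replicate 2 (0.0521) over a range of 0.000279 to 0.0521. Psph had -0.16 ± 0.05 (adjusted p = 0.0392), lost with DESeq2 (0.253), with no filter (0.0651), without parental DMSO replicate 1 (0.0573), without parental DMSO replicate 2 (0.0508), without parental CHIR99021 replicate 1 (0.0996), without parental CHIR99021 replicate 2 (0.135), without knock-out CHIR99021 replicate 1 (0.146), or leaving out knock-out CHIR99021 replicate 2 (0.16) over a range of 0.0381 to 0.253. Of members not called here, Aldh18a1 passed with no filter (0.0252), without knock-out DMSO replicate 1 (0.0327) or leaving out its replicate 2 (0.0339), and Vldlr without parental CHIR99021 replicate 2 (0.0415), over ranges of 0.0252 to 0.368 and 0.0415 to 0.935.

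**Figure D4:**
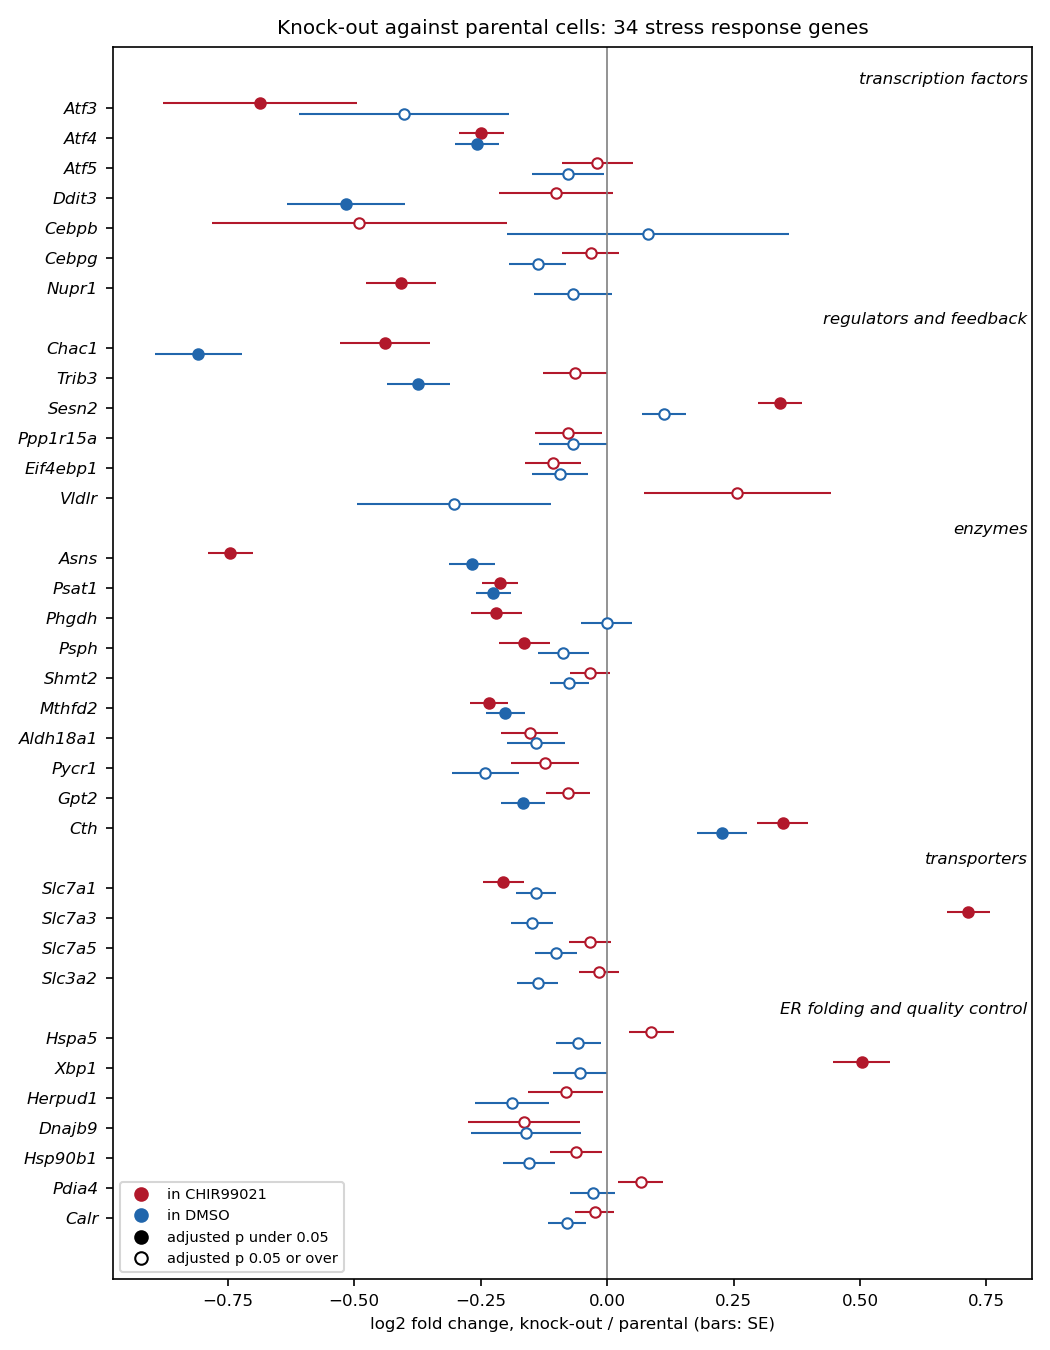
Log2 fold change of knock-out over parental cells (horizontal axis) for each of the 34 members by role, with CHIR99021 (red) and with DMSO (blue). Bars are SE and filled points have an adjusted p under 0.05. Most points lie left of 0. The filled points right of 0 are Slc7a3, Xbp1, Sesn2 and Cth with CHIR99021, and Cth alone with DMSO.

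In the ER chaperone arm the main change was in Xbp1. It fell with CHIR99021 in both lines, while the chaperones Hspa5 (BiP, the main HSP70 of the ER), Hsp90b1 (GRP94, its HSP90), Pdia4 (a protein disulphide isomerase) and Calr (calreticulin, a lectin chaperone) gave no call with edgeR in any of the 5 comparisons. Under other settings DESeq2 called Hspa5 with CHIR99021 in parental cells and Hsp90b1 between the lines in DMSO, and Hsp90b1 passed with CHIR99021 in knock-out cells with no filter (adjusted p = 0.045; range 0.045 to 0.61 over 12 alternatives). With CHIR99021, 1 of 7 members was called in knock-out cells (lower) and 2 of 7 in parental cells (both lower). In knock-out against parental cells 1 of 7 was called in CHIR99021 (higher) and 0 of 7 in DMSO with edgeR, where 2 had an unadjusted p under 0.05 and DESeq2 called 1. The shares of all genes tested called in these comparisons are those given with the ATF4 arm, and counts this small are not read against them. The arm's median log2 fold change was 0.01 with CHIR99021 in knock-out cells, -0.13 in parental cells and -0.02 for knock-out against parental cells in CHIR99021.

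Xbp1 was at 46.7 and 42.9 CPM in knock-out cells with CHIR99021, against 53.3 and 53.5 CPM in knock-out cells with DMSO, a log2 fold change of -0.25 ± 0.05 (adjusted p = 0.0197). It was at 31.5 and 31.7 CPM in parental cells with CHIR99021, against 56.1 and 54.7 CPM in parental cells with DMSO, a 0.571-fold level and a log2 fold change of -0.81 ± 0.06 (adjusted p = 2.14e-06). In both lines the CHIR99021 libraries lay below the DMSO ones. So they did for 4777 genes in knock-out and 5243 in parental cells, of 17739 tested. The call in knock-out cells was lost with DESeq2 (0.0697), without knock-out DMSO replicate 1 (0.0961), without knock-out DMSO replicate 2 (0.0535), or leaving out knock-out CHIR99021 replicate 2 (0.178), over a range of 0.00166 to 0.178, so that no member of the arm stayed called in knock-out cells without any one of these 3 libraries. The call in parental cells and the difference between lines held under the 12 alternatives. With CHIR99021, Xbp1 was higher in knock-out than in parental cells by 0.50 ± 0.06 (log2, SE; adjusted p = 8.30e-05), while with DMSO the lines differed by -0.05 ± 0.05 (adjusted p = 0.636).

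Herpud1, an ER membrane protein of ER-associated degradation, was at 17.8 and 18 CPM in parental cells with CHIR99021, against 22.5 and 20.4 CPM with DMSO, a log2 fold change of -0.26 ± 0.07 (adjusted p = 0.0291). Its call was lost with DESeq2 (0.27), without parental DMSO replicate 1 (0.221), without parental CHIR99021 replicate 1 (0.149), or leaving out parental CHIR99021 replicate 2 (0.0972), over a range of 0.0178 to 0.27, and without parental DMSO replicate 1 or parental CHIR99021 replicate 1 Xbp1 alone stayed called. In knock-out cells Herpud1 had -0.16 ± 0.07 (adjusted p = 0.231). Hspa5 was at 495 and 512 CPM in knock-out cells with CHIR99021 and 506 and 492 CPM in knock-out cells with DMSO. It was at 457 and 491 CPM in parental cells with CHIR99021 and 533 and 505 CPM in parental cells with DMSO. The knock-out groups overlapped, with a log2 fold change of 0.01 ± 0.04 (adjusted p = 0.904). The parental groups did not, with -0.13 ± 0.05 (adjusted p = 0.0649), which passed with DESeq2 (0.044), with no filter (0.00658) and without parental CHIR99021 replicate 2 (0.0381), over a range of 0.00658 to 0.395. Dnajb9, an ER co-chaperone known as a target of XBP1, had -0.13 ± 0.11 in knock-out and -0.13 ± 0.11 in parental cells with CHIR99021 (adjusted p = 0.532 and 0.482). Hsp90b1, Pdia4 and Calr lay between -0.05 and 0.12 in both lines with CHIR99021. Knock-out against parental cells in DMSO gave Hsp90b1 a log2 fold change of -0.15 ± 0.05 (adjusted p = 0.105), which passed with DESeq2 (0.0358) and with no filter (0.00105), over a range of 0.00105 to 0.505.

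Other genes of the 2 pathways were followed through 9 further lists, chosen by function with earlier results of these data known. Their counts stand beside shares of all genes tested of 7.06% (CHIR99021 in knock-out cells), 19.4% (CHIR99021 in parental cells), 23.7% (knock-out against parental cells in CHIR99021) and 6.75% (the same in DMSO), and nothing is called particular to a list. Upstream of ATF4, of 15 genes of the eIF2 kinases and eIF2 control, 0 were called with CHIR99021 in knock-out cells with edgeR (2 at an unadjusted p under 0.05, 0 with DESeq2), 4 in parental cells (3 higher, 1 lower), 5 in knock-out against parental cells in CHIR99021 (1 higher, 4 lower) and 2 in DMSO (both lower). DESeq2 called 1 in parental cells, 4 between the lines in CHIR99021 and 1 in DMSO. Eif2s2, the β subunit of eIF2, was at 665 and 684 CPM in knock-out against 833 and 889 CPM in parental cells with CHIR99021, a log2 fold change of -0.35 ± 0.04 (adjusted p = 7.80e-05). In DMSO it was at 633 and 641 CPM in knock-out against 785 and 776 CPM in parental cells, with -0.29 ± 0.04 (adjusted p = 0.00171). Both calls held under the 12 alternatives. Eif2b5 and Eif2b4, subunits of the exchange factor eIF2B, fell in knock-out against parental cells with CHIR99021, by log2 fold changes of -0.28 ± 0.04 and -0.28 ± 0.05 (adjusted p-values of 0.000727 and 0.00117). Ppp1r15b, the constitutive eIF2 phosphatase subunit, rose there, with 0.20 ± 0.04 (adjusted p = 0.00365). Of the 5 tested sensors and proteases of the ER response (of 6 listed) Atf6 gave the single call, in knock-out against parental cells with CHIR99021, with a log2 fold change of 0.41 ± 0.05 (adjusted p = 0.000269). In the other 3 comparisons edgeR and DESeq2 called 0 of the 5, and 0 (CHIR99021 in knock-out cells), 2 (CHIR99021 in parental cells) and 2 (knock-out against parental cells in DMSO) had an unadjusted p under 0.05.

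Among amino acid handling genes, 9 other transporters gave 2 calls with CHIR99021 in knock-out cells (1 higher, 1 lower) and 3 in parental cells (1 higher, 2 lower). Slc38a2, a sodium-coupled carrier of small neutral amino acids, behaved in direction as Slc7a3 did. It was at 212 and 215 CPM in knock-out cells with CHIR99021, against 242 and 251 CPM in knock-out cells with DMSO, a log2 fold change of -0.21 ± 0.04 (adjusted p = 0.0133). It was at 169.9 and 179 CPM in parental cells with CHIR99021, against 259 and 251 CPM in parental cells with DMSO, a log2 fold change of -0.55 ± 0.04 (adjusted p = 4.31e-06). The difference between lines was 0.34 ± 0.06 (SE, adjusted p = 0.00513) and held under the 12 alternatives, while the call in knock-out cells was lost without knock-out CHIR99021 replicate 1 (0.0988), or leaving out knock-out CHIR99021 replicate 2 (0.0895) over a range of 0.00016 to 0.0988. Slc1a5, a glutamine carrier, rose in parental cells with CHIR99021 (log2 fold change 0.29 ± 0.04, adjusted p = 0.000868). In knock-out against parental cells this list gave 3 calls with CHIR99021 (2 higher, 1 lower) and 0 in DMSO (3 at an unadjusted p under 0.05, 0 with DESeq2). DESeq2 called 1 with CHIR99021 in knock-out cells, 3 in parental cells and 2 between the lines in CHIR99021.

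The 12 genes of tRNA charging gave 0 calls with CHIR99021 in knock-out cells with edgeR (3 at an unadjusted p under 0.05, 1 with DESeq2) and 3, all lower, in parental cells. In knock-out against parental cells they gave 4 with CHIR99021 (2 higher, 2 lower) and 2, both lower, in DMSO. In the last 3 of these comparisons DESeq2 called 3, 4 and 3. Lars, leucyl-tRNA synthetase, fell in parental cells with CHIR99021 (log2 fold change -0.27 ± 0.04, adjusted p = 0.000454), and Nars, asparaginyl-tRNA synthetase, was lower in knock-out than in parental cells with DMSO (log2 fold change -0.23 ± 0.04, adjusted p = 0.0039). Of 11 tested other ATF4 targets (of 12 listed), 2 were called with CHIR99021 in knock-out cells (both higher) and 4 in parental cells (3 higher, 1 lower). In knock-out against parental cells 4 were called with CHIR99021 (1 higher, 3 lower) and 4 in DMSO (2 higher, 2 lower). DESeq2 called 0 of these targets with CHIR99021 in knock-out cells, 3 in parental cells, 2 between the lines in CHIR99021 and 1 in DMSO. Pck2, mitochondrial phosphoenolpyruvate carboxykinase, was at 39.5 and 34.1 CPM in knock-out cells, against 61.8 and 58.6 CPM in parental cells, with CHIR99021, a log2 fold change of -0.71 ± 0.08 (adjusted p = 5.96e-05). With DMSO it was at 36.7 and 39.3 CPM in knock-out cells, against 50.1 and 55.1 CPM in parental cells, with -0.47 ± 0.08 (adjusted p = 0.00483). The knock-out libraries of Pck2 lay below the parental ones under both treatments. Sqstm1, the autophagy receptor p62, rose with CHIR99021 in parental cells (log2 fold change 0.24 ± 0.04, adjusted p = 0.00246), and Mthfd1l, a mitochondrial folate enzyme, fell (log2 fold change -0.20 ± 0.04, adjusted p = 0.00392).

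In the ER, 16 other folding genes gave 2 calls with CHIR99021 in knock-out cells (both higher) and 2 in parental cells (1 each way). In knock-out against parental cells they gave 5 with CHIR99021 (1 higher, 4 lower) and 3, all lower, in DMSO. DESeq2 called 2 of these folding genes with CHIR99021 in knock-out cells, 1 in parental cells, 4 between the lines in CHIR99021 and 2 in DMSO. Pdia3, a disulphide isomerase that works with calreticulin, was at 408 and 402 CPM in knock-out cells, against 502 and 497 CPM in parental cells, with DMSO, a log2 fold change of -0.30 ± 0.04 (adjusted p = 0.00145). Ppib, the ER cyclophilin, rose with CHIR99021 in parental cells (log2 fold change 0.25 ± 0.04, adjusted p = 0.00176). The 16 genes of ER-associated degradation and the translocon gave 2 calls, both lower, with CHIR99021 in each line with edgeR and 0 in each line with DESeq2. Derl3, a membrane component of ER-associated degradation, was at 0.781 and 0.888 CPM in knock-out cells with CHIR99021, against 2.03 and 2.48 CPM in knock-out cells with DMSO, a log2 fold change of -1.43 ± 0.26 (adjusted p = 0.00935). It was at 0.958 and 1.25 CPM in parental cells with CHIR99021, against 2.32 and 2.03 CPM in parental cells with DMSO, with -0.98 ± 0.25 (adjusted p = 0.0202). The call was lost in knock-out cells without knock-out CHIR99021 replicate 1 (0.0757), or leaving out knock-out CHIR99021 replicate 2 (0.0568) and in parental cells with DESeq2 (0.201), without parental DMSO replicate 1 (0.107), or leaving out parental CHIR99021 replicate 1 (0.131), over ranges of 3.87e-05 to 0.0757 and 0.00578 to 0.201. For Derl3, 11 alternatives gave an adjusted p in knock-out cells and 12 in parental cells. In knock-out against parental cells the degradation genes gave 1 call with CHIR99021 (higher, 1 with DESeq2) and 1 in DMSO (lower, 0 with DESeq2).

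Stress genes of other compartments were counted the same way. Of 8 mitochondrial chaperones and proteases, 0 were called with CHIR99021 in knock-out cells with edgeR (1 at an unadjusted p under 0.05, 0 with DESeq2), 1 in parental cells (higher), 5 in knock-out against parental cells with CHIR99021 (all lower) and 1 in DMSO (lower). Of all genes tested 12.5% were called lower between the lines with CHIR99021 and 3.62% in DMSO. DESeq2 called 0 of the 8 with CHIR99021 in parental cells, 4 between the lines in CHIR99021 and 1 in DMSO. Lonp1, a protease of the mitochondrial matrix, was lower in knock-out than in parental cells with CHIR99021 (log2 fold change -0.23 ± 0.04, adjusted p = 0.00219), which held under the 12 alternatives. Of 9 cytosolic heat shock genes, 2 were called with CHIR99021 in each line (1 each way), 4 in knock-out against parental cells with CHIR99021 (1 higher, 3 lower) and 1 in DMSO (lower). DESeq2 called 2 in each line, 4 between the lines in CHIR99021 and 2 in DMSO. Bag3, a co-chaperone of HSP70, was at 18.2 and 17.9 CPM in parental cells with CHIR99021, against 9.36 and 10.4 CPM with DMSO, a 1.82-fold level (log2 0.87 ± 0.11, adjusted p = 0.000163). In knock-out cells Bag3 was at 12.9 and 11.6 CPM with CHIR99021, against 12.4 and 10.2 CPM with DMSO (log2 0.12 ± 0.11, adjusted p = 0.549). The difference between lines was -0.75 ± 0.15 (adjusted p = 0.0133), lost with DESeq2 (0.0526), without parental DMSO replicate 1 (0.0603), without parental CHIR99021 replicate 1 (0.058), without knock-out DMSO replicate 1 (0.0575), or leaving out knock-out CHIR99021 replicate 2 (0.0599) over a range of 2.42e-05 to 0.0603. Hspa1a was at 0.107 and 0.232 CPM in knock-out cells with CHIR99021, against 1.27 and 1.34 CPM with DMSO (log2 fold change -2.93 ± 0.45, adjusted p = 0.00411, lost without knock-out CHIR99021 replicate 1 (0.0537) over a range of 2.52e-08 to 0.0537). Of the 12 alternatives, 11 gave an adjusted p for Hspa1a in this comparison. Hspa1a is near identical to Hspa1b, and the split of reads between them is uncertain. For the difference between lines in the response to CHIR99021, the eIF2 list gave 1 call (lower in knock-out cells), tRNA charging 1 (higher), the other transporters 1 (higher) and the heat shock genes 2 (both lower), against 0, 1, 1 and 1 with DESeq2. The other 5 lists gave 0 calls with edgeR, with 1 to 3 genes in each at an unadjusted p under 0.05, and DESeq2 called 1 gene, of the mitochondrial list.

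**Figure D5:**
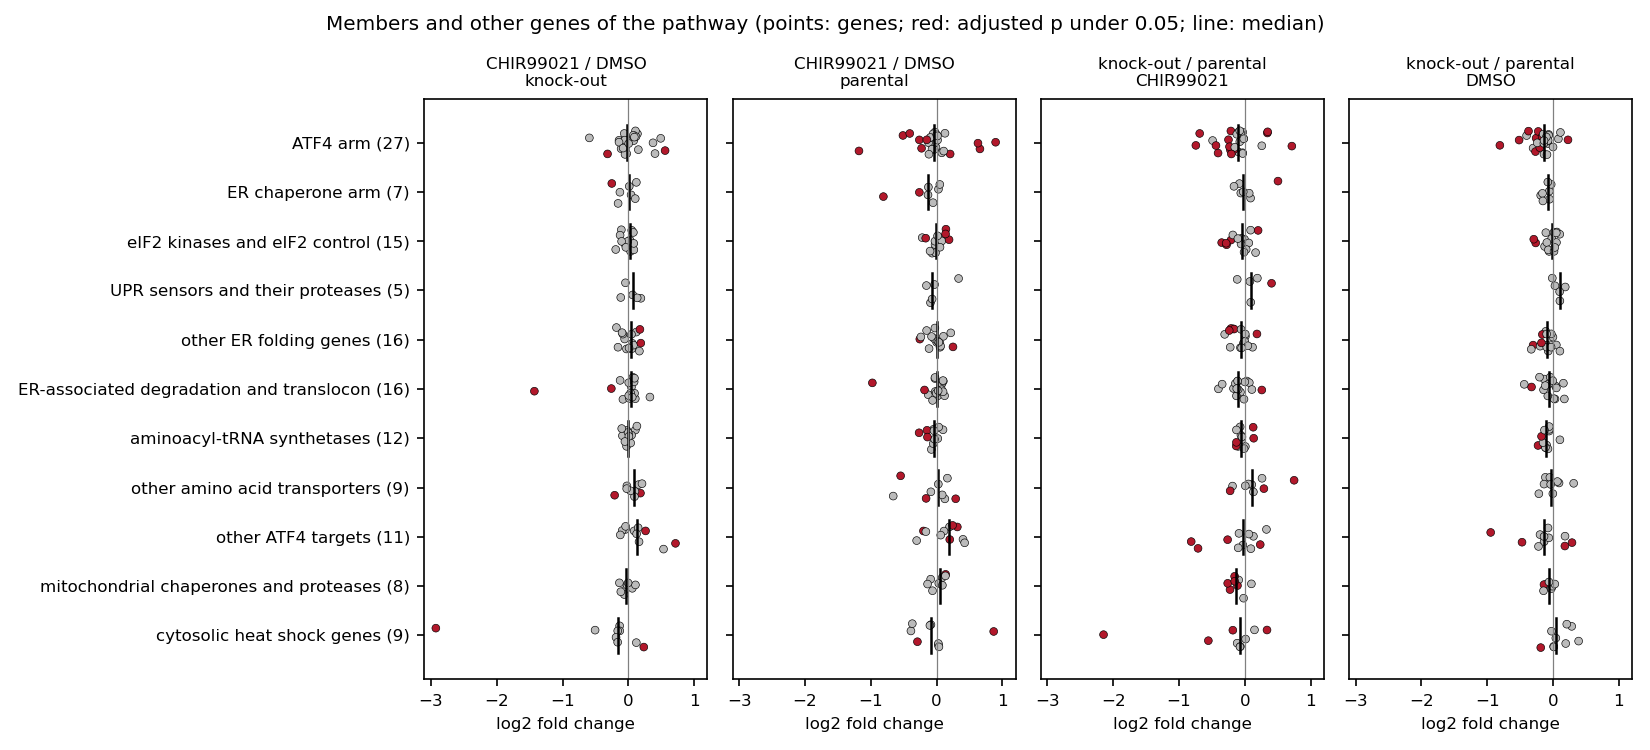
Log2 fold change (horizontal axis) of each tested gene in the 2 arms and 9 further lists, in 4 comparisons. Points are genes, red with an adjusted p under 0.05, and lines are list medians. Most medians lie close to 0. For knock-out against parental cells with DMSO the median lies left of 0 for both arms (-0.14 and -0.08) and for 7 of the 9 further lists, among them other ATF4 targets (-0.14) and tRNA charging (-0.10).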

How the data were processed

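Estimated counts per gene for 8 libraries, 2 in each of 4 groups, were deposited by the authors as 1 table. Per the labels' protocols, total RNA went into a stranded mRNA library kit (TruSeq). Per the submitters' processing notes, kallisto and build GRCm38.p4 were used, and the transcript set, strand setting and version are not given in the sources used here. The deposited counts, 36.9 to 38.4% of them not whole per library, were rounded. With R 4.3.3 and edgeR 4.0.16, genes passing filterByExpr (minimum count 10, minimum total 15; 17739 of 48440) were scaled by TMM and fitted in 1 quasi-likelihood model over the 4 groups (4 residual degrees of freedom). Benjamini-Hochberg adjustment ran over all genes tested, with a threshold of 0.05. The model was also run on simulated counts with the same relative spread for every gene. That run does not show how the model performs on these data. Fold changes are CHIR99021 over DMSO, or knock-out over parental cells. The alternatives were DESeq2 1.42.0, size factors by relative log expression, no filter, a replicate block and leaving out each library. Values are given in every library for Atf4, Atf3, Ddit3, Xbp1 and Hspa5, and per comparison for up to 8 called members of the ATF4 arm and 5 of the ER arm by adjusted p, with up to 4 called genes eligible per further list. The members and lists were chosen with earlier results of these data known. Gene locations are from GENCODE M21 and promoters from RefSeq.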

Additional observations from a re-analysis of the deposited data

Results flagged for a closer look

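The effect of CHIR99021 differed between the lines for 3 of the 34 members by the test of the difference itself. For Slc7a3 the log2 fold change in knock-out cells minus that in parental cells was 0.86 (adjusted p = 9.55e-06). For Asns it was -0.48 (adjusted p = 0.000942), and for Xbp1 it was 0.56 (adjusted p = 0.00136). In each of the 3 the value in parental cells was the farther from 0, and both libraries of each group lay on the same side of the other treatment's libraries in both lines. Such separation was common among all genes tested, as given above.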

How the results depend on the processing

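The 34 members gave 41 calls in the 5 comparisons, 23 of them kept under each of 12 alternatives, and no call changed direction. Size factors by relative log expression changed no member call. DESeq2 called 734 genes with CHIR99021 in knock-out cells (1252 with edgeR), 2023 in parental cells (3441), 692 in knock-out over parental cells in DMSO (1198), 2482 in CHIR99021 (4200) and 662 for the difference between lines (1087). With DESeq2 the ATF4 arm had 3 calls with CHIR99021 in knock-out cells (2 with edgeR) and 8 in parental cells (10). It had 7 between the lines in DMSO (9), 10 in CHIR99021 (13) and 2 for the difference (2). With DESeq2 the ER arm had 0 calls with CHIR99021 in knock-out cells (1 with edgeR) and 1 between the lines in DMSO (0 with edgeR). With no filter on low counts 2167 genes were called with CHIR99021 in knock-out cells, 2064 between the lines in DMSO and 1990 for the difference between lines. The ATF4 arm then had 4 calls (2 with the filter) with CHIR99021 in knock-out cells and 4 (2) for the difference. Between the lines in DMSO it gained Pycr1, Slc3a2, Slc7a1 and Slc7a3, and with CHIR99021 in parental cells Slc3a2. Between the lines in CHIR99021 it gained Aldh18a1 and lost Psph. The ER arm had 2 (1) with CHIR99021 in knock-out cells and 1 (0) in knock-out against parental cells in DMSO. With CHIR99021 in parental cells the ER arm gained Hspa5. Leaving out 1 library gave 307 to 1237 genes with CHIR99021 in knock-out cells, 2057 to 3507 in parental cells, 357 to 1047 between the lines in DMSO, 2509 to 4353 in CHIR99021 and 605 to 1143 for the difference. The ATF4 arm then had 5 to 11 calls with CHIR99021 in parental cells and 3 to 8 between the lines in DMSO, and the ER arm 0 to 1 with CHIR99021 in knock-out cells and 1 to 2 in parental cells. A group left with 1 library is assumed to vary like the others. The labels give groups the same replicate numbers but do not say that a number pairs libraries, and deviations of same-numbered libraries correlated with r between -0.056 and 0.104. With a replicate block the counts were 1313, 3434, 1225, 4296 and 1135 genes in the same order, and of the members' calls that of Gpt2 between the lines in DMSO was lost (adjusted p = 0.0608). For 33 genes of the further lists the same settings were chosen after seeing the data, and 24 of 64 calls were kept under each. The counts of Cebpb, Atf3, Derl3 and Hspa1a limit what could be detected for them. With 2 libraries a group, small differences may be missed, and a missed threshold does not show that groups are alike.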
